A study of Mus musculus with 6 samples.

Results

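The capillaries that wrap the lung's air sacs are built from a pair of endothelial cell types, and 9 genes that mark them were followed in mouse lung with silicosis. Aerocytes are the large, flat capillary cells at the gas exchange surface, represented here by Car4, Ednrb, Apln, Kitl, Emcn and Prx. General capillary cells are the smaller cells that regulate vessel tone and can divide to replace both types, represented by Aplnr, Gpihbp1 and Kit. The genes were taken by symbol from the mRNA count table, and all 9 were found among its 17973 rows, 6 aerocyte and 3 general capillary genes. All 9 passed the filter on low counts.

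The lungs came from C57BL/6 mice, and whole-lung RNA gave 3 silicosis libraries (N129, N136 and N138) and 3 control libraries (C7, C8 and C9). Silicosis, a scarring disease caused by crystalline silica, was produced with a single dose into the trachea, 8 mg of silica suspended in 40 µL of saline, per the labels; the control samples had saline without silica per the series text. Lungs were frozen after 90 days. The labels name no mutant allele and give neither age nor sex. They do not say that each library is a separate mouse, so the p-values below measure the spread between these samples, which may be technical. The silicosis libraries held between 33698920 and 43735169 mRNA counts and the control libraries between 39702310 and 44000748.

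The genes divide into ligands and receptors that are thought to link both cell types. Apelin (Apln), a peptide made by aerocytes, acts on the apelin receptor (Aplnr) of general capillary cells, and Kit ligand (Kitl, stem cell factor) acts on the receptor tyrosine kinase Kit in the same direction. Ednrb, the endothelin B receptor, clears endothelin and releases nitric oxide from endothelium. Car4, a carbonic anhydrase anchored on the cell surface, speeds the conversion of bicarbonate to carbon dioxide for exhalation. Gpihbp1 carries lipoprotein lipase to the capillary lumen, Emcn (endomucin) is a sialomucin that keeps leukocytes off the vessel wall, and Prx (periaxin) is a scaffold protein best known from the myelin of Schwann cells.

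Because the genes were followed for a shared direction of change, the 250 bases before the annotated start of 4 of them are shown. Car4 and Ednrb had the lowest log2 fold changes among the genes with a promoter sequence. Emcn and Kit had library N136 as their highest silicosis value, which by a small margin also held for Kitl, whose window is not printed. Sequences are from RefSeq on GRCm38.p6, an earlier build than the GRCm39 named in the submitters' processing notes. Promoters of 7 of the 9 genes were found, and Aplnr and Gpihbp1 are named only. The windows are chr11:84957504-84957753 (+ strand) for Car4, chr14:103843702-103843951 (- strand) for Ednrb, chr3:137340828-137341077 (+ strand) for Emcn, chr5:75574737-75574986 (+ strand) for Kit; for Kit the first of its listed starts was taken. Capitals mark the letters GGAA on either strand, the core of sites for ETS factors, a family that includes the endothelial factor Erg.
Car4: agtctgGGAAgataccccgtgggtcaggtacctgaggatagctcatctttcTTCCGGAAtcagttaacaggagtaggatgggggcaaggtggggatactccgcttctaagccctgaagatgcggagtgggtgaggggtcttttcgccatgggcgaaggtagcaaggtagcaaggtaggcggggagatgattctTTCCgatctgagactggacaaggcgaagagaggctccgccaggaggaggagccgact
Ednrb: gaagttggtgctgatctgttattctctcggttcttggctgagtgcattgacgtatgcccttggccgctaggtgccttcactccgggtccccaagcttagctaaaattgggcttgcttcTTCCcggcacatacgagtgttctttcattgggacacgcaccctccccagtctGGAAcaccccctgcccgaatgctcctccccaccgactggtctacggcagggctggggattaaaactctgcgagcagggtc
Emcn: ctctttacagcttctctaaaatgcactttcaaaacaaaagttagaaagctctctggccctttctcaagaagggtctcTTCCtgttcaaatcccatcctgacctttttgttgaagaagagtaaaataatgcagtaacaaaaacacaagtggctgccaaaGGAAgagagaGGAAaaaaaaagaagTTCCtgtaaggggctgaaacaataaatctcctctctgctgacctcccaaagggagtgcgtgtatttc
Kit: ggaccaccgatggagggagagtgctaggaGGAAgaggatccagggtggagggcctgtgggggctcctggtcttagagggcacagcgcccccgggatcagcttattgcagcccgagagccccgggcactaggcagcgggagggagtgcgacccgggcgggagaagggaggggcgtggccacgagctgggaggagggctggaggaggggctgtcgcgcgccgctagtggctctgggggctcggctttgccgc
The 250-base windows of Car4 and Emcn held 4 matches each, that of Ednrb 2 and that of Kit 1. The unprinted windows of Prx, Apln and Kitl held 5, 3 and 3. Of 27025 such windows of mouse genes 93.4% hold at least 1 match, with a median of 3 and 33.4% holding 4 or more.

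In silicotic lung 7 of the 9 genes fell, 5 of 6 aerocyte and 2 of 3 general capillary genes, and 0 rose (edgeR quasi-likelihood test, adjusted p under 0.05 over 15808 tested mRNAs). Over all tested mRNAs 31.8% passed by that rule, 16.5% lower and 15.3% higher in silicosis. The median log2 fold change, silicosis over control, was -0.87 over the 9 genes, -0.87 over the aerocyte genes and -0.38 over the general capillary genes, against 0.02 over all tested mRNAs. For the same 7 genes every silicosis library was below every control library, which held for 24% of all tested mRNAs; the groups were apart in either direction for 47.7%. Whole-lung RNA cannot separate a smaller share of capillary cells in the lung from less RNA of each gene per cell. Counts are relative to each library, so a lower level does not by itself show a loss of cells. Levels are normalised counts (CPM, counts per 1000000 of a library scaled with its TMM factor), and each ± is an SD over n = 3 libraries.

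**Figure D1:**
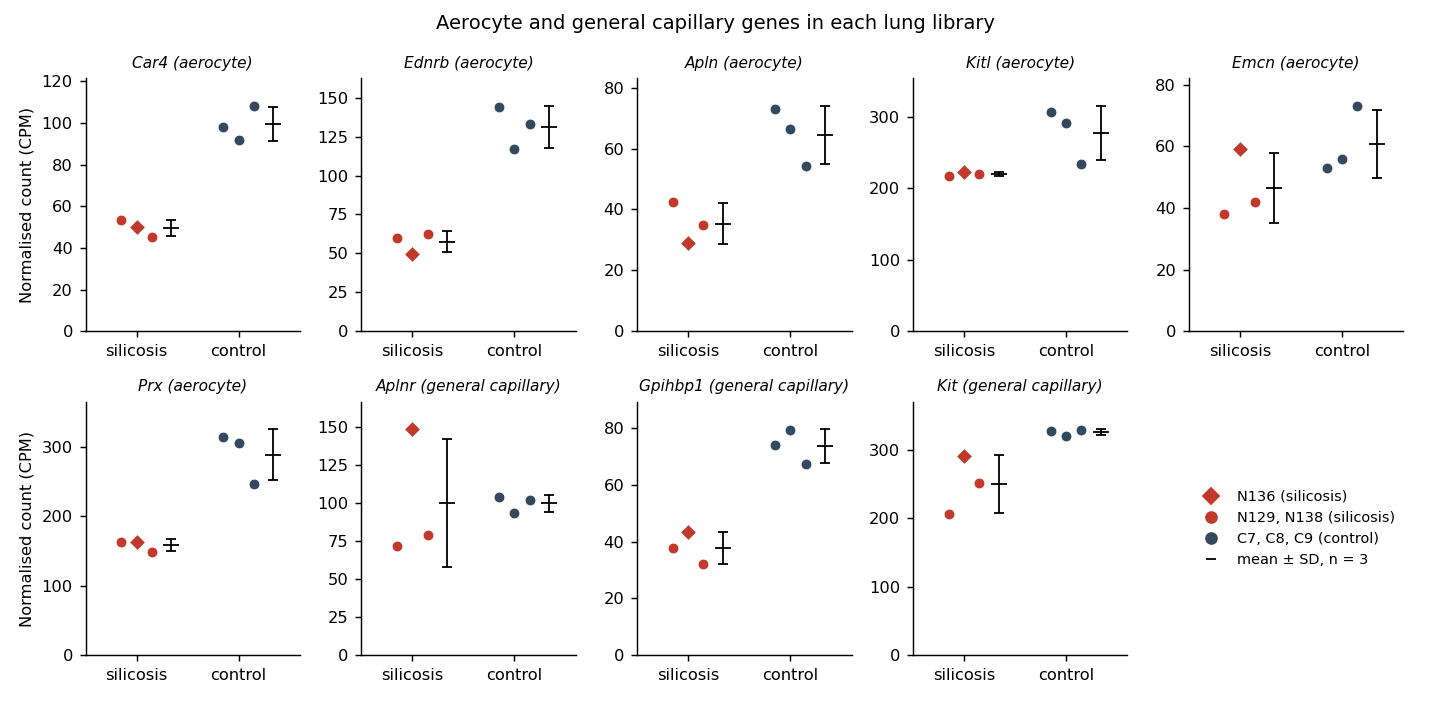
Normalised counts (CPM, vertical axis from 0) of the 9 genes in each silicosis and control library, with N136 as a diamond and the mean ± SD of each group (n = 3) beside the points. The groups are apart for 7 genes; in Emcn and Aplnr library N136 lies within or above the control values, at 59.2 and 149 CPM.

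Among the aerocyte receptors and enzymes, Ednrb fell furthest of the 9. Ednrb had 59.7, 49.7 and 62.7 CPM in silicosis libraries N129, N136 and N138, against 144, 117 and 133 CPM in controls C7, C8 and C9. All silicosis values lay well below the lowest control. The log2 fold change was -1.20 (SE 0.12, edgeR adjusted p = 0.000202), a level 43.6% of control. Car4 had 53.4, 49.98 and 45.3 CPM in the silicosis libraries and 98.0, 92.0 and 108 CPM in the control libraries. The groups were far apart relative to their spread, with means of 49.6 ± 4.02 CPM in silicosis and 99.5 ± 8.27 CPM in controls. The log2 fold change of Car4 was -1.005 (SE 0.10, edgeR adjusted p = 0.000215). In the authors' deposited table Car4 and Ednrb are the only genes of the 9 marked as down, with log2 fold changes of -1.01 and -1.21. The other 7 are marked as not changed there, and each has a log2 fold change smaller in size than that of Car4. All of these 7 but Emcn and Aplnr have an adjusted p under 0.05 there, among them Gpihbp1 at -0.97 with an adjusted p of 5.65e-10.

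Prx, the scaffold protein, was as even as Car4 in silicosis. It had 163, 163 and 148 CPM in the silicosis libraries and 315, 306 and 247 CPM in the control libraries, where C9 was the lowest. Its log2 fold change was -0.87 (SE 0.11, edgeR adjusted p = 0.00062). Of its 50-base windows 2.51% are also found in transcripts of other genes, and a transcript on the opposite strand overlaps 300 of its exon bases, whose reads cannot be told apart without a stated strand setting. For Ednrb 0.493% of the windows are shared, and for the other 7 genes 0%.

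The aerocyte ligands both fell, by different amounts. Apln had 42.4, 28.9 and 34.7 CPM in the silicosis libraries and 73.1, 66.4 and 54.1 CPM in the control libraries. N136 was the lowest of the 6. The log2 fold change of Apln was -0.87 (SE 0.16, edgeR adjusted p = 0.00357). Kitl had 217, 222 and 220 CPM in the silicosis libraries, a spread of 2.81 CPM (SD), and 307, 291 and 234 CPM in the control libraries. The lowest control value, in C9, was only a little above the silicosis values. Kitl fell by 0.34 on the log2 scale (SE 0.11, edgeR adjusted p = 0.0448). That call ended without any 1 of C7, C8, N129, N136 or N138, with adjusted p between 0.0683 and 0.164, and held without C9 at 0.00968.

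Emcn was the aerocyte gene whose groups overlapped. It had 38.1, 59.2 and 42.1 CPM in N129, N136 and N138 and 52.9, 55.9 and 73.2 CPM in the control libraries. N136 was above 2 of the 3 controls, and the other silicosis libraries were below all of them. The log2 fold change was -0.38 (SE 0.18, edgeR adjusted p = 0.139). Without N136 it was -0.60 with an adjusted p of 0.0227.

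Of the general capillary genes, Gpihbp1 fell as far as the steeper aerocyte genes. It had 37.6, 43.5 and 32.1 CPM in the silicosis libraries and 74.2, 79.3 and 67.3 CPM in the control libraries, without overlap. The log2 fold change was -0.96 (SE 0.13, edgeR adjusted p = 0.00071), a level 51.3% of control. Kit had 207, 291 and 252 CPM in the silicosis libraries and 328, 321 and 329 CPM in the control libraries. The controls were nearly level, at 326 ± 4.37 CPM, and the silicosis libraries spread over 250 ± 42.2 CPM with N136 the highest. Kit fell by 0.38 on the log2 scale (SE 0.12, edgeR adjusted p = 0.0415). That call ended without any 1 of C7, C8, C9, N129 or N138, with adjusted p between 0.0687 and 0.133, and held without N136 at 0.0099.

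Aplnr did not pass the test, and its silicosis libraries disagreed. It had 72.0, 149 and 79.3 CPM in N129, N136 and N138, against 104, 93.5 and 102 CPM in the control libraries. N129 and N138 were below every control and N136 was above every control, with counts of 2762, 6481 and 2850 in the silicosis libraries. The group means were 99.99 ± 42.3 CPM in silicosis and 99.90 ± 5.61 CPM in controls, and the log2 fold change was 0.00 (SE 0.24, edgeR adjusted p = 0.995). Without N136 it was -0.41 with an adjusted p of 0.0203. The equal means therefore rest on 1 library.

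**Figure D2:**
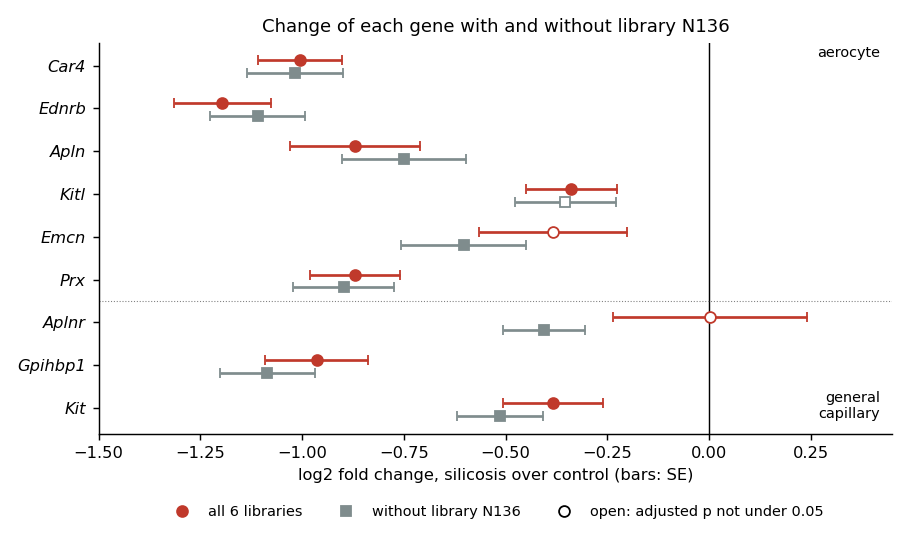
Log2 fold change, silicosis over control, of each gene (horizontal axis, bars are the SE), fitted on all 6 libraries (circles) and without N136 (squares); open symbols did not reach an adjusted p under 0.05. Leaving out N136 moves Aplnr to -0.41 and Emcn to -0.60, and moves the other genes less.

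N136 was the highest silicosis library for each of the 3 general capillary genes, but stood clearly apart only in Aplnr. Its level over the mean of N129 and N138 was 1.96 for Aplnr, 1.27 for Kit and 1.25 for Gpihbp1. Among the aerocyte genes that ratio ran from 0.75 for Apln to 1.48 for Emcn, and N136 did not stand apart in their mean. With N136 left out 8 of the 9 genes fell, all but Kitl, where 14.8% of all tested mRNAs fell. Fewer of the 9 fell with any other library left out. The mean log2 CPM of the 3 general capillary genes was 6.38, 6.96 and 6.44 in N129, N136 and N138, against 7.10, 7.07 and 7.04 in C7, C8 and C9. That of the 6 aerocyte genes was 6.25, 6.21 and 6.17 in the silicosis libraries and 7.05, 6.96 and 6.94 in the control libraries, so N136 lay between the other silicosis libraries there. In the mean of 15 further general capillary genes N136 differed from the other silicosis libraries by 0.0013 on the log2 scale, and 5 of the 15 were highest in N136. The same difference was 0.43 for 6 sialomucins, all 6 highest in N136, and 0.43 for 10 genes of venous and systemic vessels. The sialomucins include Emcn itself and Cd164l2, named after its values were seen, which had at most 1.42 CPM in any library. The aerocyte mean minus the general capillary mean was -0.13, -0.75 and -0.27 in the silicosis libraries and -0.05, -0.11 and -0.10 in the control libraries. The group difference of that quantity was -0.29 on the log2 scale, with a 95% interval from -0.82 to 0.23, and -0.11 without N136. A larger fall of aerocyte than of general capillary genes was thus not separable from the spread of the silicosis libraries.

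Ratios of ligand to receptor were compared within each library. The log2 ratio of Apln to Aplnr was -0.76, -2.34 and -1.18 in N129, N136 and N138 and -0.50, -0.49 and -0.91 in C7, C8 and C9. N136 and N138 were below every control and N129 was not. The mean difference was -0.79 (95% interval from -2.16 to 0.58; exact permutation test, two-sided p = 0.2, adjusted p = 0.4 over 2 ratios), and -0.33 without N136. The log2 ratio of Kitl to Kit was 0.07, -0.39 and -0.20 in the silicosis libraries and -0.10, -0.14 and -0.49 in the control libraries. These values were interleaved, with a mean difference of 0.07 (95% interval from -0.43 to 0.57; exact permutation test, two-sided p = 0.8, adjusted p = 0.8). With 3 libraries against 3 the smallest two-sided p is 0.1.

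Per kilobase of exon the order of levels differed between the groups. In silicosis Kitl had the highest mean at 37.1 ± 0.475 CPM per kb, followed by Prx at 28.4 ± 1.53, Kit at 28.1 ± 4.73, Aplnr at 27.0 ± 11.4 and Car4 at 25.2 ± 2.05 CPM per kb. The last 4 overlapped in mean ± SD, and Aplnr also overlapped Kitl: in N136 Aplnr had 40.2 and Kitl 37.6 CPM per kb. Lower in silicosis stood Gpihbp1 at 14.8 ± 2.24, Ednrb at 13.4 ± 1.596, Apln at 11.2 ± 2.14 and Emcn at 8.59 ± 2.07 CPM per kb, and neighbours in that order overlapped in mean ± SD. In controls the top was shared by Prx at 51.8 ± 6.57, Car4 at 50.6 ± 4.204 and Kitl at 47.0 ± 6.46 CPM per kb, whose spreads overlapped. Kit followed at 36.6 ± 0.491, then Ednrb at 30.8 ± 3.17, Gpihbp1 at 28.8 ± 2.36 and Aplnr at 27.0 ± 1.52 CPM per kb, and neighbours among these 3 overlapped in mean ± SD. Apln at 20.5 ± 3.05 and Emcn at 11.2 ± 2.03 CPM per kb were the lowest in controls. Car4 thus held rank 5 in silicosis and rank 2 in controls, and Aplnr rank 4 in silicosis and rank 7 in controls. Without N136 the silicosis means were 25.1 CPM per kb for Car4, at rank 4, and 20.5 CPM per kb for Aplnr, at rank 5. Exon lengths were taken from GRCm38 gene models.

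Genes of endothelium in general were also lower. Of 15 pan-endothelial genes 12 fell and 0 rose, with a median log2 fold change of -0.51. Over all tested mRNAs 16.5% fell and 15.3% rose, with a median of 0.02. Ramp2, a co-receptor of adrenomedullin signalling, fell by 1.26 (SE 0.09) and Eng, endoglin, by 1.25 (SE 0.12). The summed level of the 15 genes was between 3353 and 3580 CPM in the silicosis libraries and between 5752 and 5813 CPM in the control libraries. The mean log2 CPM of the list was 7.18, 7.21 and 7.11 in N129, N136 and N138 and 7.91, 7.85 and 7.80 in C7, C8 and C9, so N136 was close to the other silicosis libraries in general endothelial genes. The number of the 15 that fell ranged from 8 to 14 when 1 library was left out.

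Each gene was then set against that endothelial mean in its own library. Relative to it, Ednrb was lower in all 3 silicosis libraries than in any control, by 0.51 on average (log2 difference -0.51, 95% interval from -0.92 to -0.10). Car4 was likewise lower in all 3, with a difference of -0.31 (95% interval from -0.60 to -0.03), and Gpihbp1 with -0.28 (95% interval from -0.60 to 0.04). Kitl was higher in all 3 silicosis libraries than in any control, with a difference of 0.36 (95% interval from 0.09 to 0.62), and so was Aplnr, with 0.61 (95% interval from -0.26 to 1.48). These 5 genes had the smallest two-sided p the exact permutation test allows here, 0.1, and an adjusted p of 0.18 over the 9 genes. Apln, Prx, Emcn and Kit overlapped between the groups, with differences of -0.18, -0.18, 0.29 and 0.29 and adjusted p between 0.257 and 0.5. Set against the median of the endothelial list, the differences were -0.72 for Ednrb, -0.52 for Car4, -0.49 for Gpihbp1, 0.15 for Kitl and 0.40 for Aplnr, with the same signs.

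**Figure D3:**
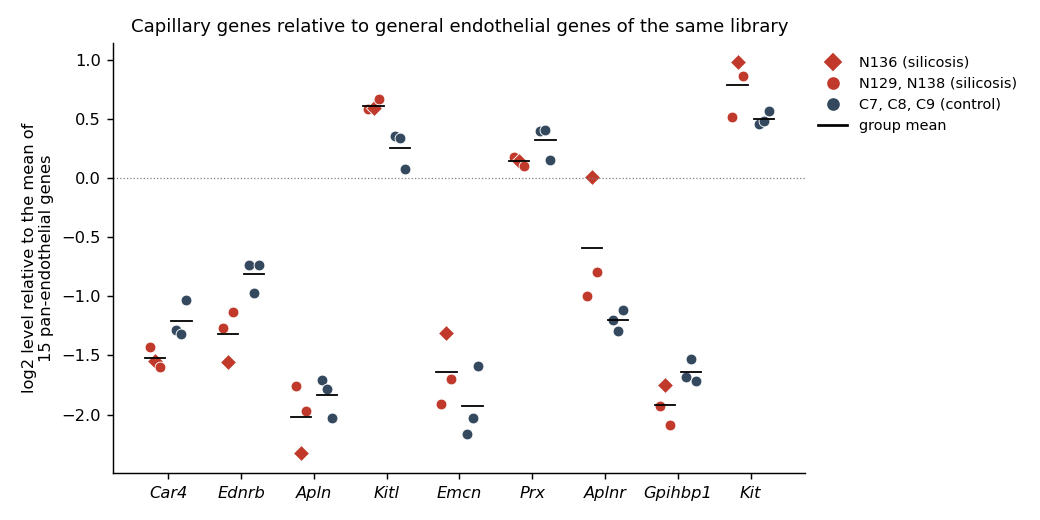
Log2 level of each gene relative to the mean log2 CPM of 15 pan-endothelial genes in the same library (vertical axis), with silicosis libraries left of control libraries, N136 as a diamond and lines at the group means. Ednrb, Car4 and Gpihbp1 are lower and Kitl and Aplnr higher in all 3 silicosis libraries than in any control.

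Further genes reported as higher in either capillary type were counted. For comparison, over all tested mRNAs 16.5% fell and 15.3% rose. Of 15 further aerocyte genes 11 fell and 1 rose, with a median log2 fold change of -0.68. Tbx2, a transcription factor, fell by 1.32 (SE 0.11), Nkd1, an inhibitor of Wnt signalling, by 0.98 (SE 0.08), and Kdr, the main VEGF receptor, by 0.90 (SE 0.09). The gene that rose, named after its values were seen, was Sirpa, a receptor that macrophages also carry, with 236, 321 and 282 CPM in silicosis and 154, 182 and 184 CPM in controls. Of 15 further general capillary genes 9 fell and 2 rose, with a median of -0.54. Tek, the angiopoietin receptor, fell by 0.97 (SE 0.08), Ptprb, an endothelial phosphatase, by 0.97 (SE 0.10), and Tmem100, an endothelial membrane protein, had a log2 fold change of -1.08 (SE 0.11). Those that rose, named after their values were seen, were Lpl and the chemokine gene Cxcl12, both also made outside the endothelium. Among 14 angiogenic factors and receptors 10 fell and 1 rose (0 rose without C7, C9 or N136), and Vegfd, a growth factor of fibroblasts in lung, fell by 1.55 (SE 0.12). The angiogenic list shares genes with the capillary lists, Kdr and Tek among them, so their falls are counted again there. The difference between both capillary lists was not tested.

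The tested endothelin genes other than Edn1 were called lower in silicosis. Of 5 tested genes, Ednrb included, 4 fell and 0 rose, where 16.5% of all tested mRNAs fell and 15.3% rose. Those that fell were Ednrb, the other receptor Ednra, the ligand Edn3 and the converting enzyme Ece1. Ednra had 66.4, 77.0 and 85.2 CPM in the silicosis libraries and 116, 110 and 114 CPM in the control libraries (log2 fold change -0.57, SE 0.11, edgeR adjusted p = 0.00361). Ece1, which cuts the precursor into active endothelin, had 310, 334 and 324 CPM in silicosis and 593, 628 and 662 CPM in controls (log2 fold change -0.96, SE 0.09, edgeR adjusted p = 0.000151). Edn3 was lower in every silicosis library, at 11.1 to 11.5 CPM against 22.2 to 26.8 CPM in controls. Edn1, the main endothelin of endothelium, overlapped between the groups, at 36.3, 21.01 and 21.09 CPM in silicosis and 26.5, 39.7 and 31.2 CPM in controls (log2 fold change -0.31, SE 0.23, edgeR adjusted p = 0.329). Edn2 and Ece2 were too low to test, at no more than 0.362 CPM in any library.

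Genes around the apelin and Kit receptors moved in both directions. Of 7 tested apelin genes 2 fell and 1 rose, where 31.8% of all tested mRNAs changed; besides Apln these were Arrb1, a beta-arrestin that desensitises receptors, with -0.30 (SE 0.10), and Gnai3, a G protein subunit, with 0.45 (SE 0.11). The Arrb1 call ended without C7, C8, N129 or N138 (edgeR adjusted p up to 0.149), and the Gnai3 call without C7 or C9 (up to 0.0518). Without N136 4 of the apelin genes fell, and without C7, C8, N129 or N138 1 did. Apela, the other apelin receptor ligand, was not analysed here. Of 11 genes of Kit signalling 4 fell and 2 rose; 2 fell without C7, C8, N129 or N138, and 1 rose without C7, C8, C9 or N129. Besides Kitl and Kit, Pik3r1, a regulatory subunit of PI3 kinase, fell by 0.62 (SE 0.08) and Sh2b3, an adaptor that dampens Kit signals, by 0.44 (SE 0.09). Mitf, a transcription factor downstream of Kit, rose by 0.66 (SE 0.12). Cbl, which marks the receptor for degradation, rose by 0.30 (SE 0.09), a call that ended without C7, C8, C9 or N129 (edgeR adjusted p up to 0.0906).

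Gpihbp1 and the lipase it carries moved in opposite directions. Lpl, lipoprotein lipase, had 334, 454 and 342 CPM in the silicosis libraries and 158, 169 and 176 CPM in the control libraries. Every silicosis library was above every control, and Lpl rose by 1.17 on the log2 scale (SE 0.13, edgeR adjusted p = 0.000318) while Gpihbp1 fell. Of 12 genes of triglyceride lipolysis 4 rose and 3 fell, where 31.8% of all tested mRNAs changed. The others that rose, named after their values were seen, were the lipase inhibitor Angptl4 (1.21, SE 0.26) and the fatty acid binding proteins Fabp4 (1.80, SE 0.32) and Fabp5 (1.57, SE 0.29). Those that fell with Gpihbp1 were Lipg, endothelial lipase, by 1.10 (SE 0.10) and Vldlr, a lipoprotein receptor, by 0.59 (SE 0.10). Cd36, the fatty acid transporter, had 708, 917 and 764 CPM in silicosis and 929, 908 and 827 CPM in controls and did not pass the test (log2 fold change -0.16, SE 0.12).

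Among the relatives of Car4, 12 carbonic anhydrase genes were tested, 3 rose and 2 fell, Car4 included. Over all tested mRNAs 16.5% fell and 15.3% rose. Car2, a cytosolic form, had 48.4, 46.5 and 45.3 CPM in silicosis and 69.5, 58.3 and 63.5 CPM in controls and fell by 0.45 (SE 0.10) with Car4. Car13 rose by 1.86 (SE 0.20), and Car8, a relative without enzyme activity, by 0.63 (SE 0.15), a call that ended without C9 (edgeR adjusted p = 0.0516). Car3, a form of muscle and fat, had 81.8, 34.8 and 33.3 CPM in silicosis and 3.68, 2.87 and 12.6 CPM in controls (log2 fold change 2.97, SE 0.57, and 3.93 without C9). Among the relatives of Emcn, 2 of 6 sialomucins fell and 0 rose (1 rose without N138 or with upper-quartile factors): Podxl, podocalyxin, by 0.63 (SE 0.09), and Podxl2 by 0.86 (SE 0.18). Cd34, another sialomucin of capillaries, did not pass the test but had 195 CPM in N136, against 141 and 140 CPM in N129 and N138 and between 140 and 141 CPM in the control libraries.

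**Figure D4:**
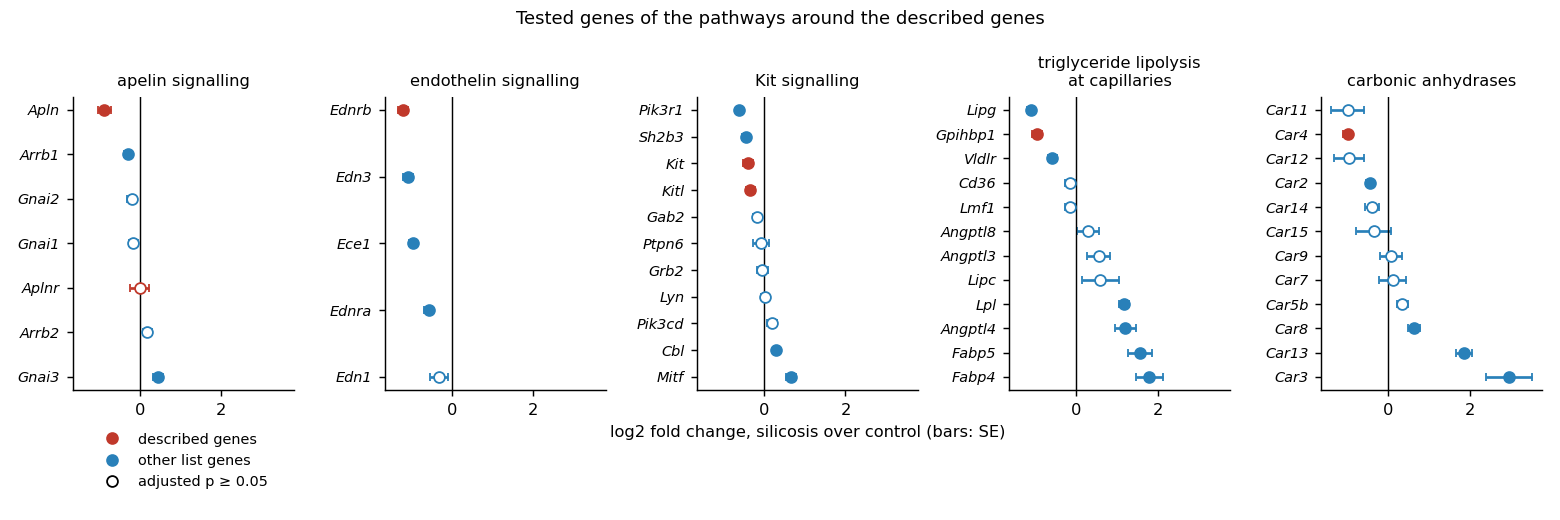
Log2 fold change, silicosis over control (horizontal axis, bars are the SE), of the tested genes in 5 groups around the 9 capillary genes, which are in red; open circles had an adjusted p of 0.05 or more. Of the tested endothelin genes 4 of 5 lie below 0 with a call, and Lpl and Gpihbp1 lie on opposite sides of 0.

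Other vessel types did not share 1 direction. For comparison, 16.5% of all tested mRNAs fell and 15.3% rose. Of 10 arterial genes 5 fell and 1 rose, and of 8 lymphatic genes 2 fell and 2 rose (1 rose without C8); 3 to 7 of the arterial genes fell when 1 library was left out, the fewest without C7. Of 10 genes of venous and systemic vessels 6 rose and 2 fell, 1 without C7, C8 or N129. Col15a1, a collagen of systemic capillaries, rose by 1.26 (SE 0.15), and Ackr1, the chemokine receptor of venules, had 3.23, 6.17 and 1.86 CPM in silicosis and 0.298, 0.383 and 0.261 CPM in controls. Nr2f2, a transcription factor of vein identity, fell by 1.03 (SE 0.10). Named after their values were seen, Vcam1, Eln, Lrg1 and Selp were the others that rose, and Slc6a2 also fell, by 0.93 (SE 0.23). Whole-lung RNA does not show which cells made these transcripts, so the count does not measure venous or systemic vessels. N136 was the highest silicosis library for 6 of these 10 genes. For Selp, P-selectin, N136 had 24.4 CPM, against 11.9 and 10.9 CPM in N129 and N138 and 4.15 to 5.85 CPM in controls. The part of venous and systemic vessels in the N136 values of Aplnr, Kit and Emcn was not tested.

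Several of the 9 genes are also made by other lung cells, whose markers were read beside them. The counts below stand against 16.5% of all tested mRNAs that fell and 15.3% that rose. Kit marks mast cells: of 12 mast cell and basophil genes 8 were tested, 0 rose and 1 fell, and the summed level was between 144 and 168 CPM in silicosis and between 241 and 273 CPM in controls. Most of that sum is Gata2, which endothelium also expresses and which fell by 1.34 (SE 0.12), and Hdc. The mast cell protease genes were near 0: Cpa3 had 2.75 to 4.54 CPM in silicosis and 3.88 to 5.04 CPM in controls, and Tpsab1 was at 0 in 5 of 6 libraries. The part of mast cells in the Kit result was not tested. Prx and Ednrb are also made by Schwann cells: 1 of 10 of their genes fell (2 without N138 or with the DESeq2 test), with sums of 291 to 303 CPM in silicosis and 479 to 503 CPM in controls. That sum is mostly Pmp22, which other cells also express and which fell by 1.11 (SE 0.08). Sox10, the factor that defines the lineage, was below 1 CPM in every library. The part of Schwann cells in the Prx and Ednrb results was not tested.

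Car4 is also made by resident alveolar macrophages. Of 10 of their genes, Car4 among them, 5 fell and 1 rose, where 31.8% of all tested mRNAs changed. Their sum was between 614 and 932 CPM in silicosis and between 638 and 762 CPM in controls. The largest part of that sum is Chil3, named after its values were seen, which did not pass the test. Chil3 had 299, 290 and 576 CPM in N129, N136 and N138 and 292, 363 and 277 CPM in the control libraries. Fabp1, a fatty acid binding protein, had 0.229 to 0.261 CPM in silicosis and 1.30 to 2.75 CPM in controls, and Ear1, whose reads are uncertain because of near-identical relatives, fell by 2.46 (SE 0.34). The part of these cells in the Car4 result was not tested. The epithelium and pericytes that lie against the capillaries were read too: 9 of 10 alveolar type 1 genes fell and 0 rose, with sums of 2372 to 2687 CPM in silicosis and 4414 to 4975 CPM in controls. Of 9 pericyte genes 4 fell and 2 rose (1 without C7, C8, N129 or N136), with sums of 606 to 667 CPM in silicosis and 711 to 811 CPM in controls. Cox4i2, a pericyte respiratory subunit, fell by 1.29 (SE 0.12) and Rgs5 rose by 1.82 (SE 0.14).

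Genes with the most similar profiles over the 6 libraries were found among 11246 other mRNAs (mean log2 CPM 3 or more), by the root mean square difference of centred log2 CPM. Closest to the aerocyte mean were Svep1, Fermt2, Dlc1, Tnks1bp1 and Rcan2, with differences between 0.0275 and 0.0399. Svep1, an extracellular adhesion protein, had 174, 172 and 169 CPM in the silicosis libraries and 298, 287 and 273 CPM in the control libraries. Closest to the general capillary mean were Syt7, Hagh, Uqcc3, Fut10 and Zfp46, with differences between 0.0533 and 0.0875, which like it had N136 as the highest silicosis library. Closest to Aplnr alone, a search added after its values were seen, was Pcdh17, a protocadherin, with a difference of 0.105. Pcdh17 had 106, 194 and 127 CPM in N129, N136 and N138 and 154, 143 and 167 CPM in the control libraries. It was above every control in N136 and below every control in N129 and N138. All these genes were picked for their likeness over the same 6 libraries, so the shared patterns follow from the search.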

How the data were processed

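Whole-lung RNA of 3 silicosis and 3 control mouse samples was analysed. Per the labels' protocols, RNA was taken with Trizol and libraries followed standard Illumina protocols. DESeq2 1.36.0, featureCounts 2.0.0, Bowtie2, HISAT2 and Trimmomatic 0.39 are listed, with build GRCm39, per the submitters' processing notes; annotation and strand setting: not given in the sources used here. Raw counts per gene, not normalised by the authors, make up the deposited mRNA table. The authors' deposited comparison table holds log2 fold changes, silicosis over control, with p-values.

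Counts were tested with edgeR 4.0.16 in R 4.3.3: filterByExpr (15808 of 17973 mRNAs kept, 99.98% of counts), TMM factors, the two-sided quasi-likelihood F test and Benjamini-Hochberg adjustment over all tested mRNAs at 0.05. The SE is the log2 fold change divided by the square root of F. Per-library log2 values are log2(CPM + 0.5); their 95% intervals use the pooled SD, and single values were compared by exact permutation tests. Libraries of a group were distinct (chi-square per degree of freedom between 15.3 and 82.1). Shared 50-base windows, overlaps and exon lengths come from GENCODE M21 transcripts of GRCm38. Fits were tested on simulated data. Alternatives were DESeq2 size factors, upper-quartile factors, no filter, DESeq2 1.42.0, limma-voom (limma 3.58.1), a pseudocount of 2, the endothelial median and each library left out.

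The 9 genes and the 20 gene lists were chosen with earlier results of these data known. By rule, all 9 genes, the tested apelin, endothelin and Kit genes, the 3 called genes with the lowest p of each other list and the 5 most similar profiles may be named; exceptions, chosen after their values were seen, are marked in the text or are Vldlr, Cd36, Car2, Car8, Cd34, Hdc, Cpa3, Tpsab1 and Sox10. The values of 1 gene of the Schwann cell list are not reported here.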

Additional observations from a re-analysis of the deposited data

How the results depend on the processing

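The calls of Car4, Ednrb, Apln, Prx and Gpihbp1 held under DESeq2 size factors, upper-quartile factors, no filter, the DESeq2 test, limma-voom and each library left out. Their log2 fold changes with 1 library left out lay between -1.06 and -0.94, -1.28 and -1.11, -1.02 and -0.75, -0.97 and -0.81, and -1.09 and -0.86. The calls of Kitl and Kit held under the same scalings, filter and tests, and ranged from -0.45 to -0.26 and from -0.51 to -0.27 with 1 library left out, where 1 of 6 fits kept each call. Emcn ranged from -0.60 to -0.23 with 1 library left out and passed without N136 (edgeR adjusted p = 0.0227). Aplnr changed sign with DESeq2 size factors (-0.0020), no filter (-0.0060), the DESeq2 test (-0.0044) and limma-voom (-0.070), and ranged from -0.41 without N136 to 0.19 without N129. Of the general capillary genes between 1 and 3 fell with 1 library left out, and of all 9 between 5 and 8. The cause was not tested. Against the median of the endothelial list, relative differences moved to -0.52 for Car4, -0.72 for Ednrb, 0.15 for Kitl, -0.39 for Prx, -0.49 for Gpihbp1 and 0.078 for Kit. A pseudocount of 2 moved none of the per-library quantities beyond 1 SD. No paired analysis was possible because the groups share no replicate numbers. The count of 3 libraries a group limits precision more than depth, since each of the 9 genes had at least 1153 counts in every library.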
